A study of Mus musculus with 4 samples.

Results

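The mouse reference genome carries, on chromosome 17 of mm10, a partial copy of the ribosomal RNA gene unit beside the noncoding gene AY036118. The cytosines described here are those in chr17:39783000-39849000 that had at least 10 reads, in liver DNA of 4 mice. They numbered 1034 in any mouse and 797 in all 4 mice, of 1608297 and 1276684 in the whole series. The stretch was chosen by measured values of these data, its high coverage and its strain differences in methylation. The strain contrast in methylation within it is therefore given as a description with no test.

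Methylation was measured by enhanced reduced representation bisulfite sequencing (ERRBS). In this assay DNA is cut with restriction enzymes and reads of 50 bases start at the cuts. The protocol in the labels names MspI, which cuts at CCGG, and all cuts here are CCGG sites. The study also describes ERRBS as a combination of MspI with TaqαI, whose sites were not considered here. Bisulfite turns unmethylated cytosines into T and leaves methylated ones as C, so the share of reads with C is the methylation level, in which 5-methylcytosine and 5-hydroxymethylcytosine are not told apart. The samples were livers of male mice 6 to 8 weeks old on a normal diet, with no transgene or treatment named. Mixed-1 and Mixed-2 had an undefined mixed background that included C57BL/6J and were housed at one institution, while B6-1 and B6-2 were C57BL/6 mice from another. Background and housing cannot be told apart. The Mixed and B6 libraries also differed in coverage along the read and by fragment length, as given below. Such library differences cannot be told apart from strain either. In what follows, 4 values in a row give the mice in the order of their names here, both Mixed mice first. CpG reads, counted once at every cytosine they cover, numbered 60654199, 65176203, 99215153 and 91886997 per mouse.

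Ribosomal RNA genes lie in tandem arrays of near-identical units on several chromosomes. RNA polymerase I transcribes each active unit into a precursor that starts with an external transcribed spacer, followed by the small subunit rRNA (18S) and then by the rRNAs of the large subunit. Only some of the units are active in a cell, and methylated units are known as the silent ones. The arrays are largely absent from the assembled genome, so that reads from many units can be placed on the few copies that the assembly holds. A methylation level at such a copy is then a share over many units and cannot be assigned to 1 locus.

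The copy was short. Of the 797 common cytosines, 794 lay in the 5817 bp of chr17:39843013-39848829, and the 60013 bp upstream of it held only 3. From its start, the unit overlapped the GENCODE lincRNA gene Gm26917 at 39843013-39846341 on the plus strand, which takes the place of the external transcribed spacer. The RefSeq 18S pseudogene Rn18s-rs5 followed at 39846354-39848202 on the plus strand, with 109 common cytosines, and 627 bp after it closed the unit. GENCODE also placed an rRNA gene, CT010467.1, over the 18S and the part after it on the minus strand, and a lincRNA gene, Gm42418, over most of the same bases on the plus strand. AY036118 itself was annotated in different ways. In GENCODE it is a lincRNA gene on the minus strand at 39847113-39848035, wholly inside the 18S and opposite to it, with 60 common cytosines. In RefSeq it is a gene on the minus strand from 39848112 to 39898385, most of which lies outside the stretch. A second pseudogene, CT010467.2, at 39811786-39812022, held 0 covered cytosines. No large subunit rRNA was annotated in the stretch.

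Restriction sites set what ERRBS can read here. The unit held 69 CCGG sites on its plus strand, against a median of 3 and a highest value of 64 over 15738 windows of the same length on chromosome 17. CCGG reads the same on both strands, and 89.3% of those windows held at least 1. Of the common cytosines of the unit, 487 lay within a read's length of a cut on their own strand and took between 93.1% and 95.2% of the unit's CpG reads in the 4 mice. The other 307 had a median coverage between 34 and 135.

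The 4 reads printed next hold the strain-different cytosines with the deepest coverage. These and all reads printed below are given as the reference sequence of their strand, before bisulfite conversion. Each runs 5′ to 3′ from the first base after the cut. In these 4, capitals mark the CpG whose C is base 30 of the read.

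chr17:39845078-39845127, plus strand: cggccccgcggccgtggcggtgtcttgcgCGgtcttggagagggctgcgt

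chr17:39845840-39845889, minus strand: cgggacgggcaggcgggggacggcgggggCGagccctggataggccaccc

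chr17:39845974-39846023, minus strand: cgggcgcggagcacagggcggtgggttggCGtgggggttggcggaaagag

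chr17:39848215-39848264, minus strand: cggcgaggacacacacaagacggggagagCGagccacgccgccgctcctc

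Coverage of the stretch was far above that of the rest of the genome in every mouse. Median coverage over all of its cytosines in a file was 231, 240.5, 1659 and 596 in the 4 mice, and the files held 1031, 924, 855 and 903 of them, against a median of 39, 44, 55 and 53 over all cytosines of the same files. Of the 675 cytosines in the series with at least 10 times the median coverage of their file in every mouse, 445 (65.9%) lay in the stretch. The 3 deepest cytosines of the stretch were 39846122 on the plus strand, near the end of Gm26917, and 39848448 and 39848452 on the minus strand, after the 18S. The first of them had 16008, 16750, 14834 and 14060 reads in the 4 mice, with a methylation of 7.88%, 14.0%, 5.40% and 4.52%. At 39848448 methylation was 9.33%, 17.2%, 7.03% and 6.03% in the same order, and at 39848452 it was 10.2%, 19.6%, 8.24% and 7.71%.

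**Figure D1:**
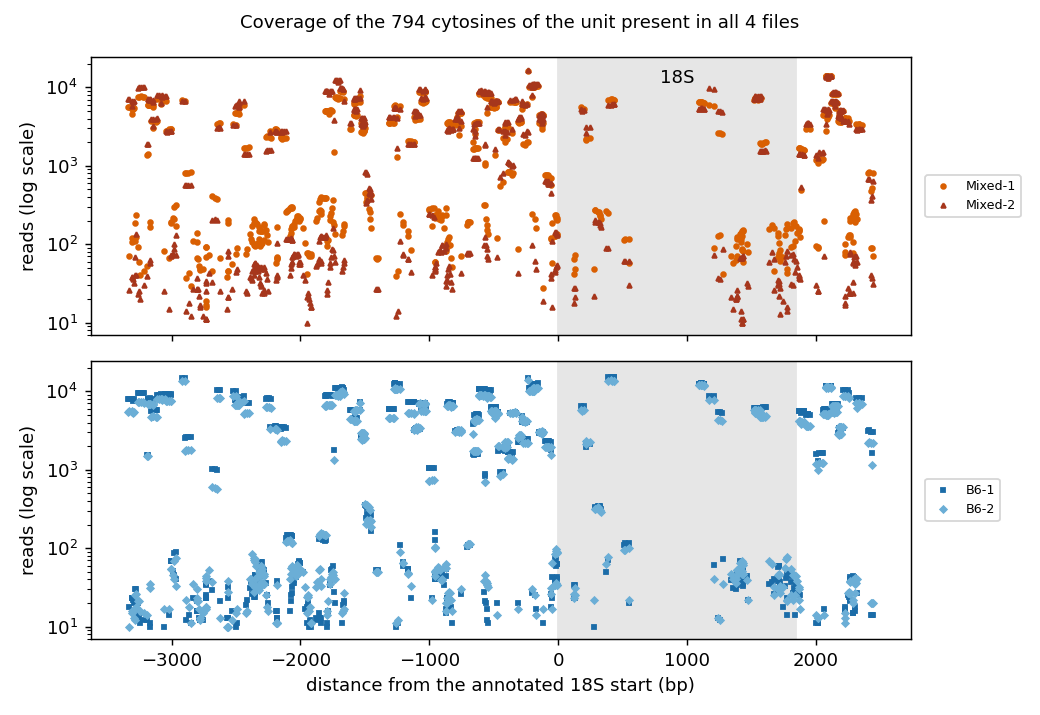
Reads per cytosine (log axis) against the distance in bp from the annotated 18S start, for the 794 cytosines of the unit present in all 4 files, with Mixed mice above and B6 mice below and the 18S shaded. Most cytosines near a cut form the upper band, with medians of 3822 to 5674 reads, and most of those beyond the reach of a read form the lower band, with medians of 34 to 135.

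The stretch took 3.70% and 3.74% of all CpG reads in the Mixed mice and 2.90% and 2.75% in the B6 mice. The mean was 3.72% ± 0.0251 (SD, n = 2) against 2.82% ± 0.102 (SD, n = 2), and the mice did not overlap. The difference of 0.894 percentage points had p = 0.333 in a two-sided exact permutation test, the smallest p that 2 mice against 2 can give. High coverage was part of what chose the stretch, so nothing is read from this p. The direction depended on the measure and on the cytosines counted. The median coverage of the stretch over that of the file was 5.92 and 5.47 in the Mixed mice. In the B6 mice it was 30.2 and 11.2, the other way round. This median was taken over all cytosines of each file, and the files held different numbers of them. Over the 797 common cytosines median coverage was 1676, 1524, 2336 and 2189, against file medians of 39, 44, 55 and 53. Scaled in this way, the strains overlapped. Fragment length moved with the strain difference in coverage. At read starts of the unit with at least 1000 reads in each mouse, the B6 to Mixed ratio of coverage per total reads had a median of 0.528 for fragments of 30 to 59 bp (28 read starts) and of 1.45 for fragments of 150 to 249 bp (7 read starts). Outside the stretch the same ratio was 0.639 and 1.99. For fragments of 250 to 349 bp it was 2.03 over 2 read starts of the unit and 0.740 over 1083 outside, so the longest fragments ran the other way. Its part in the share of reads was not tested.

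Methylation in the unit was low and, for most cytosines, lay in a band around a level of its own in each mouse. Over the 797 common cytosines the mean was 12.5%, 23.2%, 11.02% and 9.60% in the 4 mice. Mixed-2 stood apart from the other 3 mice. The strain means were 17.9% ± 7.52 (SD, n = 2) and 10.3% ± 1.005 (SD, n = 2). Their difference of 7.54 points was smaller than the 10.6 points between the 2 Mixed mice, so the strains were not separated beyond the spread between mice. It was 2.22 points without Mixed-2 and 12.9 without Mixed-1. With all CpG reads of the unit pooled, methylation was 11.6% (Wilson 95% interval 11.6 to 11.7) and 22.7% (22.6 to 22.7) in the Mixed mice, and 9.02% (8.99 to 9.06) and 8.17% (8.13 to 8.20) in the B6 mice. The intervals cover counting error only, and are too narrow even for that. A read counts at every cytosine it covers, and PCR copies of 1 molecule count as separate reads.

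The 419 cytosines of the unit with at least 1000 reads in every mouse showed how even the level was. Their median was 11.6%, 22.5%, 8.74% and 7.70% in the 4 mice. Of them, 88.1%, 78.0%, 92.1% and 92.8% lay within 5 points of the median of their own mouse, in that order. A band of 5 points is wide beside a low level, so these shares are not compared between mice. The SD over the cytosines was 4.92, 8.26, 4.88 and 4.78 points, against a median counting error of 0.455, 0.564, 0.350 and 0.362. Their 5th to 95th percentiles were 6.16% to 16.7%, 16.5% to 33.6%, 5.45% to 14.3% and 4.66% to 13.5%. At most 1 of them was over 80% in any mouse. Over the whole series, by contrast, the median was 0% and the upper quartile between 74.2% and 76% in each mouse, and 3.31% of all common cytosines lay between 5% and 40% in all 4 mice, against 515 of the 797 (64.6%) of the stretch.

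Each step in the order of the mice held at most single cytosines of the unit, and more often at the deep ones. Mixed-2 was above Mixed-1 at 417 of the 419 deep cytosines, Mixed-1 was above both B6 mice at 360, and B6-1 was above B6-2 at 363. Over all 794 common cytosines of the unit these counts were 745, 524 and 566. Over all common cytosines of the series Mixed-2 was above Mixed-1 at 26.5%, and the other comparisons were not counted there. The median ratio of Mixed-2 to Mixed-1 over the 419 deep cytosines was 1.90, and that of B6-2 to B6-1 was 0.902. Mixed-2 was higher than Mixed-1 by at least 5 points at 655 of the 797 common cytosines (82.2%), against 12.2% of all common cytosines, and B6-1 was higher than B6-2 by as much at 118 (14.8%), against 11.4%. Cytosines of 1 mouse share its library and those of 1 read start share reads, so these counts describe 4 mice and are not counts of independent events. Across the 419 deep cytosines, Pearson's correlation between mice was 0.983 for the B6 mice and 0.704 for the Mixed mice, and the points share their position in the reads. The cytosine 39844615 lay far above the rest, at 70.3%, 92.0%, 90.4% and 89.2% in the 4 mice. It weighs heavily on these correlations, which were not computed without it.

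**Figure D2:**
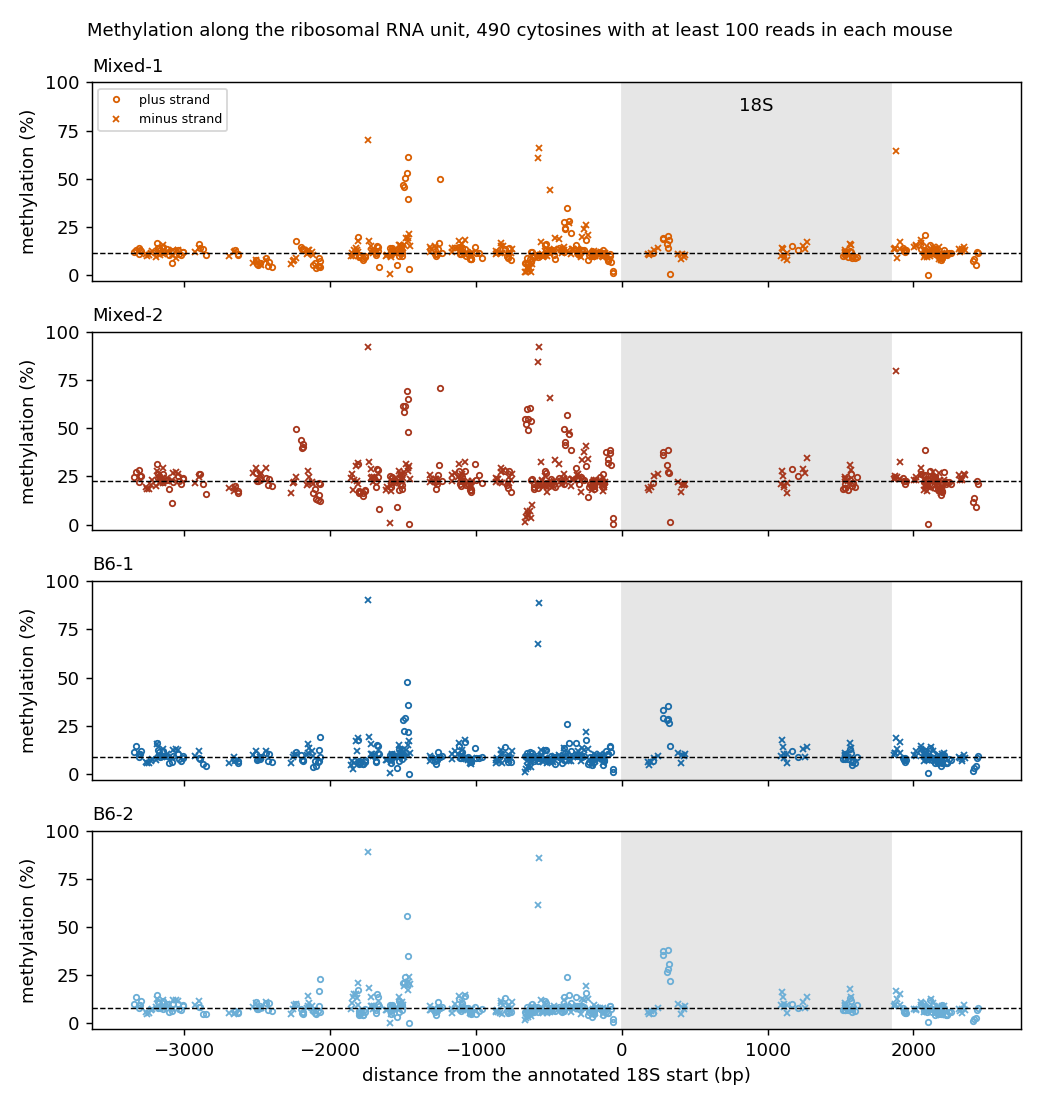
Methylation (%) of the 490 unit cytosines with at least 100 reads in each mouse, against the distance in bp from the annotated 18S start, with 1 panel per mouse, circles for the plus and crosses for the minus strand, the 18S shaded and the median of the mouse dashed. Most points lie in a narrow band around the dashed line, which is highest in Mixed-2.

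The level was alike in the parts of the unit. In the 563 common cytosines of Gm26917 the mean was 12.3%, 23.6%, 10.4% and 9.73% in the 4 mice. In the 109 cytosines of the 18S it was 12.3%, 21.5%, 12.7% and 9.74%, and in the 118 after the 18S it was 12.5%, 21.6%, 10.4% and 6.92%. The 18S minus the part before it came to 0.0389 points ± 1.80 (SD, n = 4 mice), positive in 2 of 4 mice (two-sided exact sign-flip permutation test, p = 0.875, where 4 mice can give no p below 0.125). The part after the 18S differed from the 18S by -1.21 points ± 1.61 (SD, n = 4; p = 0.5 in the same exact test). Within AY036118 as GENCODE draws it, the mean was 12.4%, 19.4%, 12.3% and 9.58%. In the 52 common cytosines of the first 300 bp of Gm26917, where the unit as drawn here begins, it was 11.7%, 21.3%, 9.58% and 7.90%. The unit was drawn from the annotated start of Gm26917. No full ribosomal RNA unit was aligned to look for a promoter or spacer before it, so transcribed and upstream parts were not compared.

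Coverage of the 18S had gaps. Of its 280 CpG cytosines, 151 (53.9%) were covered in any mouse, against 96.5% in Gm26917 and 95.7% after the 18S. The bases at 39846352-39846491, across the start of the 18S, have an exact copy of 140 bp at chr16:18533192-18533331, and 4 of the 12 CpG cytosines in these bases were covered, with 0 covered in the copy on chromosome 16. A second stretch on chromosome 6 matched 908 bp of the 18S at 98.0% identity. The part that matching copies have in the missing cytosines was not tested.

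Mixed-1 and Mixed-2 did not differ by the same factor everywhere. Over the 73 read starts of the unit with at least 1000 reads in each mouse at their deepest cytosine, the ratio of Mixed-2 to Mixed-1 had a median of 1.88, with quartiles at 1.76 and 1.99. It was 2.5 or more at 7 of them, and 6 of these started from 3 neighbouring cuts, the last at 39844120. Mixed-1 was low on 5 of the 6, whose cytosines lay at 39843827-39844122, between 2527 and 2232 bp before the 18S. The 19 deep cytosines in these 296 bp had a mean of 7.18% ± 2.94 and 25.2% ± 6.75 (SD over cytosines) in the Mixed mice, and of 9.13% ± 1.88 and 8.74% ± 1.76 in the B6 mice. In the other 400 deep cytosines the means were 12.1%, 23.4%, 9.17% and 8.22%. Mixed-1 thus fell below both B6 mice at 17 of these 19 cytosines, on both strands, and at 21 of the other 400. The sixth read start, on the plus strand from 39844121, has 1 of its 4 cytosines in this interval and went the other way, with means of 14.7%, 43.3%, 9.02% and 7.06%. The interval was chosen after its values were seen, so no test was made.

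The highest ratio, 4.34, belonged to the plus-strand end of a fragment of 90 bp. Its reads, written with their measured CpGs in capitals, and those from its other end are shown because both ends belong to 1 fragment and differed so much.

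chr17:39845646-39845695, plus strand: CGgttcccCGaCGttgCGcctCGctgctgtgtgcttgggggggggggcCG

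chr17:39845688-39845737, minus strand: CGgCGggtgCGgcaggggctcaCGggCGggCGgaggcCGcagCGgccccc

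The 6 cytosines of the plus end had a mean methylation of 11.03% and 47.9% in the Mixed mice and 18.3% and 14.1% in the B6 mice, but only the last of them, 39845694 at read base 49, was deep. It was 6.31%, 54.9%, 9.45% and 5.88% methylated in the 4 mice, at 1258 to 1752 reads. The other 5 had 177 to 194 reads in Mixed-1, 76 to 78 in Mixed-2 and 104 to 114 in the B6 mice, so that the ratio of 4.34 rests mostly on shallow cytosines. The 8 cytosines of the minus end had means of 2.88%, 5.40%, 4.57% and 4.73%, at a deepest coverage between 3523 and 5138. The plus end was thus above and the minus end below the usual level of the unit in Mixed-2. Over the 114 CpGs with at least 1000 reads on each strand in every mouse, the strands differed by a median of 1.72, 2.75, 1.16 and 0.810 points in the 4 mice, and by at most 5 points at 88.6%, 76.3%, 93.0% and 98.2% of the CpGs.

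The strain contrast gave 16 cytosines of the 797 (2.01%) whose mice did not overlap between strains and whose strain means were at least 25 points apart, against 0.338% of all common cytosines. Without Mixed-1 the count was 59 (7.4%, against 0.729% of all common cytosines), and without Mixed-2 it was 10 (1.25%, against 0.867%). With the strands of a CpG merged it was 7 of 492 (1.42%, against 0.318%). This contrast chose the stretch, so nothing is read from that excess. In 11 the Mixed mice were higher (background 0.18%) and in 5 the B6 mice (background 0.158%). At a distance of 10 points 193 cytosines were counted (24.2%, background 4.9%), 186 with Mixed higher (background 2.82%) and 7 with B6 higher (background 2.08%). With no minimum distance they were 519 (background 8.95%) and 18 (background 7.63%). The smallest difference among the 16 was 28.0 points, at 39844893, and the largest just under the limit was 24.9, at 39845961. In all, 19 cytosines whose mice did not overlap lay between 20 and 25 points. The share of all common cytosines in that range was not taken, so nothing is read from this count.

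**Figure D3:**
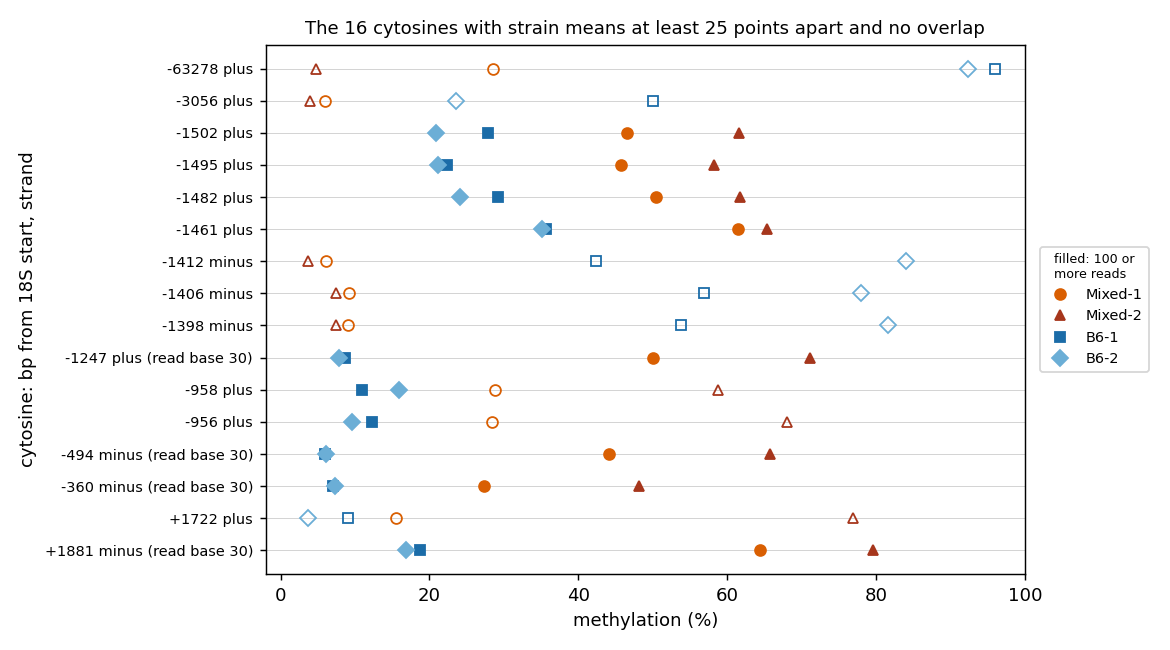
Methylation (%) in each mouse of the 16 cytosines with strain means at least 25 points apart and no overlap, in order along the stretch and named by their distance in bp from the 18S start and their strand, with filled symbols for 100 or more reads. The 4 cytosines at read base 30 lie at 6.02% to 18.7% in the B6 mice and at 27.3% to 79.6% in the Mixed mice.

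The 16 fell into few reads, and 8 of them had fewer than 100 reads in at least 1 mouse. The 5 with B6 higher were all of this kind. The first of them, 39783076 on the plus strand, was also the only one outside the unit, 63278 bp before the 18S. It was 28.6% and 4.76% methylated in Mixed-1 and Mixed-2, at 42 and 21 reads, and 96.0% and 92.3% in B6-1 and B6-2, at 25 and 39 reads. The first cytosine of the same read, 39783034, was between 75% and 95.7% in all 4 mice. Whether the mice differ in sequence there was not tested. The cytosine 39843298, within Gm26917 and beyond the reach of a read, was 6.02% and 4% in the Mixed mice and 50.0% and 23.5% in the B6 mice, the last 2 at 10 and 17 reads. The other strand of this CpG, at 6887 to 9273 reads, was 8.94%, 27.04%, 12.8% and 11.9% methylated in the 4 mice, with no excess in the B6 mice.

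The 3 other cytosines with B6 higher, 39844942, 39844948 and 39844956, share 1 minus-strand read start, shown because 3 sites there moved together. Capitals mark them.

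chr17:39844930-39844979, minus strand: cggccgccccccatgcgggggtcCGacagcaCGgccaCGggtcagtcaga

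Methylation at these 3 was between 3.70% and 9.23% in the Mixed mice, between 42.3% and 56.9% in B6-1, and between 78.0% and 84.0% in B6-2. Their coverage was 27 to 66 reads, where the cytosines of the unit within a read's length of a cut had a median of 3822 reads or more in each mouse. The B6 mice differed from each other here by over 20 points.

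Of the 11 cytosines with Mixed higher, 4 belong to the plus-strand end of a 47-bp fragment between 1502 and 1461 bp before the 18S. The read runs past the end of that fragment. Capitals mark the 4 and 39844886, which was high in all mice. The measured CpG at 39844890, with strain means 22.4 points apart and no overlap, is in lower case.

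chr17:39844852-39844901, plus strand: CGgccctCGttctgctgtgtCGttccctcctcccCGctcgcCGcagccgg

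At 39844852, the first base of this read, methylation was 46.5% and 61.6% in Mixed-1 and Mixed-2 against 27.8% and 20.8% in B6-1 and B6-2, at 352 to 835 reads. Over all 6 cytosines of the read start the means were 49.4%, 60.6%, 30.7% and 29.6%, so that every mouse was above its usual level. The reads of the same cut on the other strand, 2559 to 3661 deep, had means of 14.4%, 25.1%, 11.9% and 10.2%. The cytosines 39845396 and 39845398 of 1 read start lay at read bases 47 and 49 with 47 to 163 reads, and were 28.3% to 68.1% in the Mixed mice and 9.62% to 15.8% in the B6 mice. The cytosine 39848076 in the 18S was 76.9% in Mixed-2, at 13 reads, and between 3.70% and 15.5% in the other mice.

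The remaining 4 cytosines were the deep ones, and all 4 were base 30 of their read. At 39845107 on the plus strand, methylation was 50.0% and 71.1% in Mixed-1 and Mixed-2 and 8.69% and 7.88% in B6-1 and B6-2, at 1309, 1710, 12514 and 10731 reads. At 39845860 on the minus strand it was 44.1%, 65.7%, 6.02% and 6.14% in the same order. The cytosine 39845994 was 27.3%, 48.1%, 6.998% and 7.30% methylated. The cytosine 39848235, after the 18S, was 64.3%, 79.6%, 18.7% and 16.8% methylated, at 488 and 540 reads in the Mixed and 5329 and 3875 in the B6 mice.

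Coverage dropped at these cytosines far more in the Mixed than in the B6 mice. At 39845107, the reads were 0.222 and 0.308 times those of the deepest cytosine of the same read start in Mixed-1 and Mixed-2, and 0.986 times in both B6 mice. Over the 4 cytosines the values were 0.209 to 0.419 in the Mixed and 0.860 to 0.986 in the B6 mice. When the methylated reads were set against the deepest cytosine of the read start, 39845107 came to 11.1%, 21.9%, 8.57% and 7.78%, close to the usual level of each mouse. The 4 cytosines then had medians of 11.01%, 21.02%, 7.71% and 7.47%. Among them 39848235 stayed high in every mouse, at 18.6%, 30.1%, 17.6% and 15.7%. What lowers the coverage at these positions was not tested.

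The drop was not particular to the unit. Outside the stretch, over cytosines at read starts with at least 4 cytosines, the mean relative coverage at read base 30 was 0.779 and 0.774 in Mixed-1 and Mixed-2 and 0.980 in both B6 mice, and read bases 28 to 32 also dipped in the Mixed libraries. Mean methylation at read base 30 was 12.3% and 12.4% there in the Mixed and 11.2% and 11.3% in the B6 mice. Read bases 27 to 33 held 10.1% of all common cytosines near a cut, 22.4% of the 2275 such cytosines called with Mixed higher by at least 25 points, and 9.79% of the 1992 called with B6 higher. Without these read bases the count in the stretch was 11 of 735 (1.5%), against 0.313% of all remaining cytosines. With the deepest cytosine of the read start as denominator, it was 9 (1.13%, 4 with Mixed higher), against 0.393%.

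**Figure D4:**
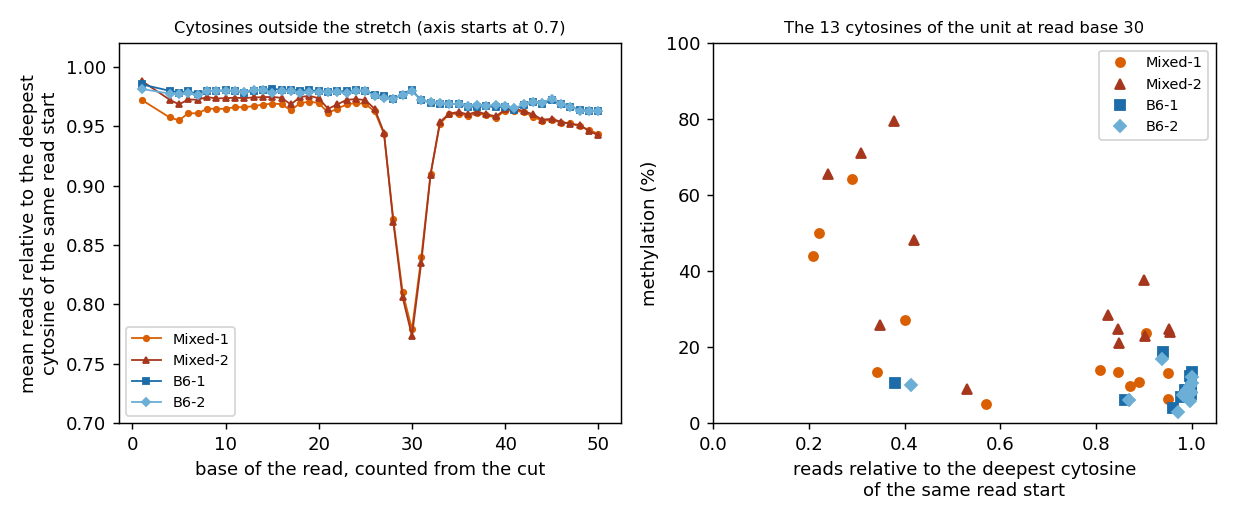
Left, mean reads of a cytosine relative to the deepest cytosine of its read start, by base of the read counted from the cut, for cytosines outside the stretch in each mouse (axis from 0.7). Right, methylation (%) against the same relative coverage for the 13 unit cytosines at read base 30 with at least 100 reads in each mouse; the Mixed values from 27.3% to 79.6% with a relative coverage under 0.42 are the 4 strain-different cytosines.

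The unit held 13 cytosines at read base 30 with at least 100 reads in each mouse, and the other 9 differed less. Their median methylation was 13.2%, 24.7%, 9.32% and 8.84% in the 4 mice. Across the 13, the ratio of Mixed to B6 relative coverage and the strain difference in methylation had a Pearson correlation of -0.877, where both measures come from the same reads. Across the 406 unit cytosines of that depth at read bases outside 27 to 33 it was -0.162. A low relative coverage did not always come with high methylation. At 39848782, after the 18S, relative coverage was 0.570 and 0.530 in the Mixed mice and 0.962 and 0.972 in the B6 mice. Methylation there was 4.98%, 9.12%, 3.97% and 2.88%. At 39844843, 1511 bp before the 18S, relative coverage was between 0.343 and 0.414 in all 4 mice and methylation was 13.6%, 25.8%, 10.5% and 10.02%. The deepest cytosine of that read start, 39844814, is also within a read's length of the cut before it, at 39844765. Reads of both fragments can count there, so this relative coverage is no measure of a drop at 39844843.

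A few cytosines stood apart from the unit in every mouse. Of the 490 with at least 100 reads in each mouse, 5 were at least 20 points above the median of their mouse in all 4 mice, and 7 were under 4% in all 4. Of the high ones, 2 belong to the 47-bp fragment above, and the other 3 lie near the far end of 2 minus-strand reads, shown with these sites in capitals.

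chr17:39844611-39844660, minus strand: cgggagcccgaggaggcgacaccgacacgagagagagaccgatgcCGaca

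chr17:39845781-39845830, minus strand: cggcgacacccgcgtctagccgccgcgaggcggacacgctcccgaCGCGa

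The cytosine 39844615, at read base 46, was 70.3%, 92.0%, 90.4% and 89.2% methylated in the 4 mice, at 1348 to 3821 reads. The pair at read bases 46 and 48 of the second read, 39845785 and 39845783, lay between 60.8% and 92.0%. At these 3 cytosines relative coverage was between 0.0790 and 0.307 in all mice, and their methylated reads came to 14.0%, 28.2%, 14.8% and 13.5% of the deepest cytosine at 39844615. Those of 39845785 came to 9.51%, 19.9%, 7.43% and 6.93%, and those of 39845783 to 8.45%, 18.02%, 5.44% and 4.87%. On this scale 39844615 stayed above the median of the deep cytosines in every mouse, and the other two lay below it.

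The 7 low cytosines were under 4% in every mouse, and their neighbours were not all at the usual level. At 39844767 on the minus strand, next to the cut at 39844765, methylation was 0.564%, 0.547%, 0.381% and 0.282%, at 5680 to 7132 reads. In the 24-bp fragment that ends there, the minus-strand cytosines 39844754 and 39844756 had 18 and 19 reads in Mixed-1. They were absent from the other files. Reads from the next cut, at 39844813, had 5740 to 7383 at their deepest and also reach 39844767. Its reads can thus come from the neighbouring 48-bp fragment, and what sets its level was not tested. At 39848454 on the plus strand, after the 18S, it was 0.0220%, 0.0770%, 0.532% and 0.645%, at 4456 to 5824 reads. The other low ones were 39844899, 39845695, 39845700, 39846295 and 39846297, with values up to 3.74%. Of these, 39844899 is next to the cut at 39844898 and is also reached by reads from the cut at 39844851. The 6 cytosines of that read start were on average above the usual level in every mouse. Both 39845695 and 39845700 belong to the minus-strand read start at 39845735, whose 8 cytosines had means of 2.88%, 5.40%, 4.57% and 4.73%.

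Bases other than C and T at a cytosine are read neither as methylated nor as unmethylated. They made up a mean of 0.0331% ± 0.00481 (SD, n = 4 mice) of the reads over the cytosines of the stretch, against 0.0146% ± 0.00179 over all other cytosines. The difference of 0.0186 points was positive in 4 of 4 mice (two-sided exact sign-flip permutation test, p = 0.125, the smallest possible). By the mean over the mice, 3 cytosines led, all within Gm26917 and with at least 2513 reads in each mouse. The 5 cytosines that came next had other bases in 1 mouse each, at 3.13% to 4.17% of 24 to 32 reads. At 39845597 on the plus strand, other bases made up 4.96%, 5.12%, 6.05% and 5.26% of 3043 to 3767 reads in the 4 mice. At 39844814 on the plus strand the share was 2.42% to 3.39%, and at 39844850 on the minus strand it was 2.39% to 3.34%. The mice lay close together at each of these 3.

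The order of the mice seen in the unit recurred at other places with very high coverage. Outside the stretch, 230 cytosines had at least 10 times the median coverage of their file in every mouse, 11 of them on mitochondrial DNA. The mean of the stretch was lower than theirs by 24.2 points ± 2.71 (SD, n = 4 mice), in 4 of 4 mice (two-sided exact sign-flip permutation test, p = 0.125). The nuclear ones formed 34 clusters, of which 19 were over 60% methylated in every mouse and 14 lay between 5% and 40%. In these 14, with 125 cytosines, Mixed-2 was the highest mouse in 13, and the order of Mixed-2 above Mixed-1 above both B6 mice held in 12. The ratio of Mixed-2 to Mixed-1 had a median of 1.80 over the 14, close to the 1.88 over the read starts of the unit, and of 0.998 over the 19 highly methylated clusters. The 14 clusters were picked for a level between 5% and 40%, so how near their levels lie to that of the unit was fixed by the choice.

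The largest of the 14 were chr11:109011699-109011984, with 27 cytosines and medians of 11.4%, 21.3%, 7.26% and 5.72% in the 4 mice, and chr16:11144050-11144122 in Zc3h7a, with 24 cytosines and medians of 9.05%, 16.1%, 5.23% and 5.71%. A cluster in the annotated microRNA gene Mir6236 at chr9:110281329-110281337 had medians of 13.6%, 22.3%, 8.10% and 7.46%. Of the 14, 2 lay within 200 bp of a match to the 18S, on chromosomes 8 and 9, and the other 12 matched no 100 bp of the unit. The cluster in which Mixed-2 was not the highest mouse, on chromosome 6, rested on 1 cytosine, at 35.7%, 35.1%, 38.7% and 34.98%. What these other places are was not examined.

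**Figure D5:**
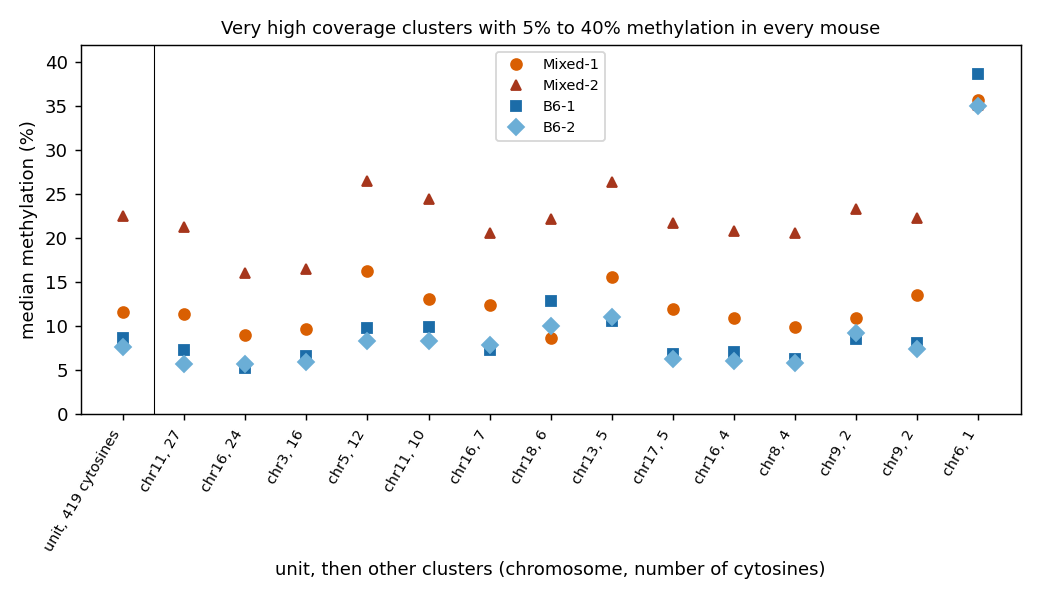
Median methylation (%) per mouse in the unit (419 cytosines with at least 1000 reads in each mouse) and in the 14 other very high coverage clusters between 5% and 40% in every mouse, named by chromosome and number of cytosines. Mixed-2 is the highest mouse in the unit and in 13 of the 14 clusters.

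Most copies of unit sequence elsewhere in the genome with ordinary coverage had other levels. The reference held 33 further matches of at least 100 bp, 12 of them with a cytosine present in all 4 files and 9 with at least 5. In 6 of these 9, methylation averaged over the mice was between 70.8% and 93.8%. At chr11:104072709-104073118, 92.2% identical to the start of Gm26917, 21 cytosines had means of 79.6%, 86.7%, 82.1% and 89.4% in the 4 mice, at a median coverage of 26 to 39. The match on chromosome 6 with 98.0% identity to the 18S, at chr6:3200770-3201677, lay between, with 26 cytosines at 21.9%, 34.8%, 25.5% and 29.2% and a median coverage of 36.5 to 107. At the plus-strand read start 284 bp after the 18S start, whose reads run into the matching bases, both B6 mice lay far above Mixed-1 and near Mixed-2. Its 7 cytosines had means of 15.2%, 28.4%, 27.8% and 31.3%, at a deepest coverage of 205 to 349.

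Start regions of genes that make or process ribosomal RNA were far lower than the unit. A list of 24 such genes, with subunits of RNA polymerase I, its initiation factors, remodelling factors and nucleolar proteins, was taken from textbook knowledge, and 21 had common cytosines within 1000 bp of a RefSeq transcript start, 1084 in all. Their mean methylation over mice had a median of 0.169%, and 19 of the 21 were under 10%. Ubtf, the factor that keeps active ribosomal RNA genes open, had 0.169% ± 0.0272 (SD, n = 4) over 317 cytosines, Ttf1, the termination factor, 0.120% ± 0.0901, and Baz2a, a subunit of the complex that silences the units, 0.106% ± 0.107. The lowest was Gtf3a, a factor for the other ribosomal RNA gene class, at 0.0698%, and the highest Taf1c, of the RNA polymerase I selectivity factor, at 39.7% ± 0.416. Of the 1084 cytosines, 1, at Smarca5, met the strain contrast at 25 points (0.338% of all common cytosines did), with a mean over its 49 cytosines of 6.56% in Mixed-1 and 0.176% to 0.330% in the other mice.

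Cytosines found in only some of the files were shallow. The 237 members missing from at least 1 file were present in 234, 127, 58 and 106 cases in the 4 mice, at median coverages of 38, 19, 15 and 14, and their median methylation was 12.5%, 23.5%, 9.17% and 7.42%. Their means, at 13.5%, 23.2%, 19.6% and 15.4%, were well above the medians in the B6 mice. Among them were 8 cytosines at 39844964-39845045, missing from Mixed-2, that were 0% to 36.8% methylated in Mixed-1, 42% to 72.5% in B6-1 and 71.4% to 100% in B6-2, at 19 to 71 reads. The 3 of these on the minus strand belong to the read start of 39844942, 39844948 and 39844956, and the others to a plus-strand read start after it. They were singled out after their values were seen. The first and last common cytosines of the stretch were 39783034, on the plus strand, and 39848800, on the minus strand, the latter with 7.14%, 19.4%, 35.7% and 5% at 70, 31, 14 and 20 reads.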

How the data were processed

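Per the study's methods, the authors mapped the ERRBS reads to mm10 with BSMAP; the submitters' processing notes instead name Bismark and SAMtools, and no version is given in the sources used here. For each mouse on its own, the authors deposited the coverage, a count of reads, of each CpG cytosine per strand with at least 10 reads, and the percent of these reads with C and with T. All 1608037 positions on the autosomes, X and Y lay on a CpG of GRCm38, the build of mm10. The rest of the 1608297, mitochondrial DNA among them, were not checked. Annotation came from GENCODE M21 and RefSeq. Read bases were counted from the nearest CCGG cut on the strand of the cytosine. Matches to the unit were found with blastn 2.17.0 (word size 20, at least 100 bp). Python 3.11.15 with pandas 2.3.3 and scipy 1.17.1 gave the values, and the count rule was tested on simulated data. A count of members needed no overlap between strains and strain means 25 points apart. Named cytosines were those called, the 3 deepest and the first and last. Members, gene list and tests were chosen with earlier results of these data known, and the intervals and read bases singled out were chosen after their values were seen. Alternatives were coverage minimums of 20 and 100, merged strands, pooled reads, other distances and leaving out each mouse. The transcribed part was not compared with an upstream part, because the unit was drawn from the start of Gm26917 and none was matched. The 18S against the part before it took its place. Labels do not say that the mice came from separate litters.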

Additional observations from a re-analysis of the deposited data

How the results depend on the processing

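Mixed-2 sets the strain difference of the stretch. Leaving out each mouse in turn gave a mean difference between 2.22 (without Mixed-2) and 12.9 points (without Mixed-1), and all 13 alternatives kept its direction. The count of 16 strain-different cytosines (2.01%, background 0.338%) ranged in the same way. It was 10 without Mixed-2 (1.25%, background 0.867%) and 59 without Mixed-1 (7.4%, background 0.729%). Without B6-1 or B6-2 it was 22 (2.76%, background 0.703%) or 19 (2.38%, background 0.823%). With at least 100 reads in every mouse it was 8 of 490 (1.63%, background 0.199%), all with Mixed higher. Merged strands gave 7 of 492 (1.42%, background 0.318%). At 10 points it was 193 (24.2%, background 4.9%) and at 50 points 6 (0.753%, background 0.0208%). The deepest cytosine of the read start as denominator gave 9 (1.13%, background 0.393%), an alternative chosen after the data were seen. The strain difference in the share of reads stayed between 0.822 and 0.966 points when each mouse was left out. It turned to -15.0 times the file median when median coverage over all cytosines of each file was compared. That measure was 5.92 and 5.47 times the file median in the Mixed mice and 30.2 and 11.2 times in the B6 mice. The files held different cytosines, and over the 797 common ones the strains overlapped on this measure. The cause was not tested. The excess of other bases stayed between 0.0171 and 0.0202 points without each mouse. The stretch minus other very high coverage cytosines stayed between -25.6 and -23.6 points without each mouse and turned to 1.92 against the clusters between 5% and 40%, whose level was fixed by that choice. The 18S minus the part before it lay between -0.710 and 0.760 points without each mouse and was -0.226 with at least 20 reads, so it has no stable sign.

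The numbers of the mice share only a label. With same-numbered mice paired in a replicate block, the mean differences were 1.51 and 13.6 points. The count stayed at 16 (2.01%, background 0.348%). The share of reads differed by 0.804 and 0.984 points (two-sided exact sign-flip permutation test, p = 0.5). Over the stretch, the correlation between same-numbered mice, each taken as its distance from the mean of its strain, was 0.0688. The planned comparison of the transcribed with the upstream part was not run, since no upstream part was matched. With 2 mice in each strain, no test here could reach a p under 0.05.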
